A study of Mus musculus with 180 samples.

Results

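Open chromatin that carried the co-repressor TRIM28, the co-activator P300 and the pluripotency factor POU5F1 at the same place was compared between mouse embryonic stem cells (ESCs) of 2 inbred strains. The regions were those of the ESC accessibility table that overlapped, by 1 bp or more, a region in each of the TRIM28, P300 and POU5F1 tables. They numbered 24362 of the 112226 accessible regions, and the rule itself used overlap alone. How the regions were called is not stated, so a region low in 1 strain may be listed through the other strain. The part of this in the agreement between signals was not tested. Being in a table does not say that a factor was bound in each line, since each table lists 1 set of regions for all of its libraries. DBA/2J (D2, ESC lines D55, D29 and DAC203) was set against C57BL/6J (B6, lines B41, B51 and B44). Accessibility (ATAC-seq, which reads open DNA through insertion by a transposase) and TRIM28 ChIP-seq covered 3 lines per strain, and P300 and POU5F1 ChIP-seq covered D55 and D29 of D2 and B41 and B51 of B6. Also used were ESC accessibility of 3 lines of the hybrid B6D2F1/J (F1) and of 33 BXD lines, recombinant inbred strains bred from crosses of both parents, accessibility of the same parental lines as epiblast-like cells (EpiLCs, the state that follows naive pluripotency), and parental ESC RNA. The labels name no engineered allele and no treatment. A strain's replicates are different cell lines, whose embryos of origin and sex the labels do not state, so p-values measure the spread between these lines.

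POU5F1 (OCT4) is a POU-domain transcription factor that naive ESCs need, and it often binds the octamer ATGCAAAT beside SOX2. P300 is a histone acetyltransferase that transcription factors bring to active enhancers and promoters. TRIM28 (KAP1) has no DNA-binding domain of its own: KRAB zinc finger proteins bring it to DNA, chiefly at retrotransposons, where it assembles the machinery that methylates histone H3 on lysine 9. TRIM28 is also found at promoters and, in ESCs, together with pluripotency factors. In what follows a region with all 3 factors is named by the gene with the nearest protein-coding start, which need not be the gene it acts on.

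The sequences of 5 such regions that differed between the strains are shown around their octamer, because the octamer is the word POU5F1 reads and because the first pair shows the repeated sequence that recurs below. They were read from GRCm38.p6 (mm10), which is the C57BL/6J sequence, and capitals mark the octamer. The D2 sequence was not used here. The Ttc28 and Dst regions lie in introns on different chromosomes, and both were lower in D2 in all 4 signals. The Sox5 region, in an intron, lost accessibility in D2 while TRIM28 rose, the Sox7 region lay outside coding genes near a primitive endoderm gene and was lower in all 4 signals, and the Dppa2 region, over that gene's start, was higher in all 4.
Ttc28, chr5:111127687-111127806, minus strand: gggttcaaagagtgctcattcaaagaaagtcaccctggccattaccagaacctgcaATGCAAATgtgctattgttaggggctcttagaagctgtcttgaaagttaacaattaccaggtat
Dst, chr1:34107589-34107708, plus strand: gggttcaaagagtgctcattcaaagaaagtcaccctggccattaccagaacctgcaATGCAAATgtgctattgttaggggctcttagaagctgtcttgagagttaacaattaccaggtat
Sox5, chr6:144361724-144361783, plus strand: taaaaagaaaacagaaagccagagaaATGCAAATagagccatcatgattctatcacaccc
Sox7, chr14:63936481-63936540, plus strand: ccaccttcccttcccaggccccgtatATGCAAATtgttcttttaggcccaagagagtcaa
Dppa2, chr16:48304369-48304428, plus strand: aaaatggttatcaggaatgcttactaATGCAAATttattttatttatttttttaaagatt
The Ttc28 and Dst stretches were equal at 119 of 120 bases. Over the whole regions, Dst shared 327 words of 31 bases with Ttc28, and 344 with the Dsg3 region, which was higher in all 4 signals. Related regions were thus called in both directions. Those of Amph, Rtraf and Sccpdh, which shared 100 or more words with both, were higher in all 4, and that of Pla2g2c was lower. None of the 5 octamers stood next to a SOX word (CATTGT or CTTTGT 1 base before the octamer, both strands). In 300-base windows around the region centres, the octamer on either strand was present in 2.91% of the regions with all 3 factors, in 2.66% and 4.17% of those higher and lower in D2 in all 4 signals, and in 3.12% of all accessible regions. The word TCAAGGTCA, which the naive factor ESRRB reads and which does not overlap the octamer, was present in 1.88% of the regions with all 3 factors, 3.42% of those higher and 3.33% of those lower in all 4 signals, and 1.42% of all accessible regions. Away from gene starts, where most of both sets lay, 2.44% of the regions with all 3 factors and 2.49% of those with no signal called held it. There 2.97% of regions with P300 and POU5F1 but no TRIM28 region held it. The shares of the sets higher and lower in all 4 signals rest on 18 and 8 regions.

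The regions with all 3 factors were wide and often at promoters. A wider region can more easily overlap a region in each of 3 tables, so the rule itself favours width. Their median width was 1704 bp, against 938 bp over all accessible regions, and 8807 of them (36.2%) lay within 1 kb of a protein-coding start, against 21531 (19.2%) of all. The median level per kb was 7.35 to 7.78 in the D2 lines and 7.34 to 7.69 in the B6 lines for accessibility, on the normalized signal scale. In regions with P300 and POU5F1 but no TRIM28 region, of which there were 5196, it was 4.91 to 5.14 in D2 lines and 5.45 to 5.65 in B6 lines. At gene starts the regions were rich in CpG, with a median of 22 CpG in 300 bases, against 4 away from starts. Neighbouring accessible regions can share 1 wide factor region: the 24362 regions drew on 22503 TRIM28, 22966 P300 and 23229 POU5F1 regions.

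Reads in regions came to 16300000 to 23100000 per accessibility library, 5630000 to 6870000 per TRIM28 library apart from D55 with 17100000, 3050000 to 4920000 for P300 and 2230000 to 3820000 for POU5F1. The ESC RNA checked the cells: the 10 naive markers summed to 6348 to 6662 in D2 lines and 6880 to 7434 in B6 lines. The 3 measured formative EpiLC markers summed to 199 to 267 in D2 and 86.4 to 123.9 in B6, and 7 feeder fibroblast markers to 938 to 1291 and 832 to 1110. Primitive endoderm markers summed to 13.1 to 18 in D2 and 14.1 to 16.2 in B6, trophectoderm markers to 4.16 to 7.24 and 7.20 to 11.7, and two-cell-like markers to 2.84 to 18.1 and 1.86 to 4.32. The part of these other cells in the results below was not tested. Trim28 RNA was 1667, 1697 and 1759 in the D2 lines, against 1253, 1377 and 1504 in the B6 lines, without overlap, and its part in the TRIM28 signal was not tested.

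Between the strains, accessibility was called different at more of these regions than any of the 3 factors, and in each signal more regions were higher in D2 than lower. The signals were not measured equally well: the median SE was 0.09 for accessibility, 0.15 for TRIM28, 0.21 for P300 and 0.20 for POU5F1. The log2 differences as measured had SDs of 0.49, 0.42, 0.46 and 0.43, which include this unequal error. P300 and POU5F1 were also fitted after adding 1 to each value, and accessibility and TRIM28 after adding 0.1. Neither the counts nor these SDs therefore rank how far the signals differed. Accessibility was higher in D2 at 6909 regions (28.4%) and lower at 5555 (22.8%), in limma at a Benjamini-Hochberg adjusted p under 0.05 over all regions of the table. The whole list of accessible regions had 22.2% higher and 24.7% lower. TRIM28 was higher at 3458 (14.2%) and lower at 2465 (10.1%), against 19.7% and 18.4% of the TRIM28 table, so both shares were smaller than in the table as a whole. That table also holds regions outside accessible chromatin. Among the 58789 accessible regions with a TRIM28 region, 17.8% were higher and 10.8% lower, so the lower share was close to theirs. P300 was higher at 2369 (9.72%) and lower at 936 (3.84%), against 6.17% and 5.16% of its table. POU5F1 was higher at 2379 (9.77%) and lower at 980 (4.02%), against 6.48% and 4.36% of its table. The excess of higher calls depended on the scaling. With quantile normalization P300 had 2097 higher and 1455 lower and accessibility 6377 and 6162, and with median-ratio scaling TRIM28 had 2962 and 2904.

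**Figure D1:**
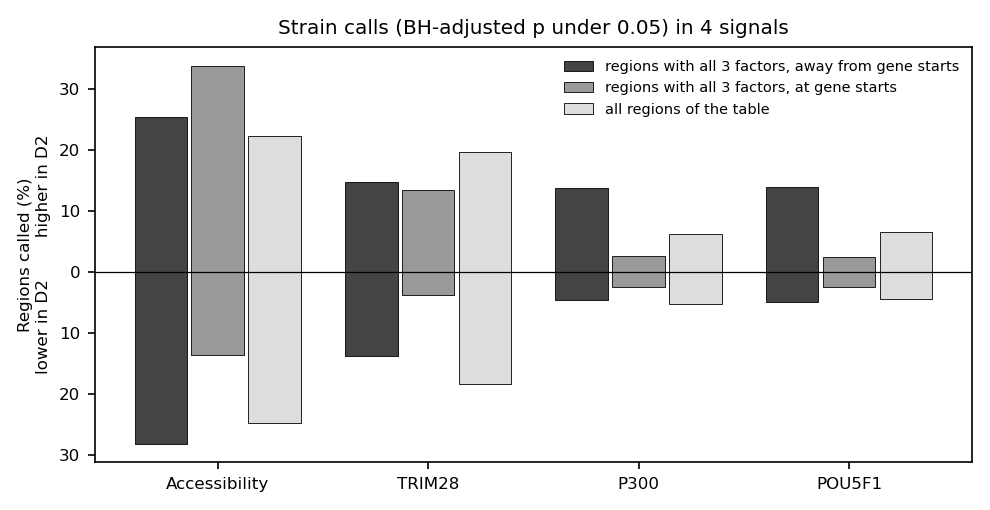
Share of regions called higher (bars up) or lower (bars down) in D2 for accessibility, TRIM28, P300 and POU5F1, as a percent of regions, for regions with all 3 factors away from and at gene starts and for all regions of each table. Away from starts P300 and POU5F1 were called higher at 13.8% and 13.9% of regions, against 6.17% and 6.48% of their tables.

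The P300 and POU5F1 counts rest on 2 lines per strain and moved with each line. Without D55 P300 gave 4597 higher and 2031 lower, without D29 1430 higher, without B41 891 and 198, and without B51 942 and 156. For POU5F1 they were 1327 and 515 without D29 and 820 and 474 without D55. With limma's trend and robust options off, P300 gave 514 higher and 198 lower and POU5F1 811 and 313.

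The calls divided by position. At gene starts accessibility was higher in D2 at 2972 regions and lower at 1190, and TRIM28 at 1177 and 325, while P300 was higher at 225 and lower at 215 and POU5F1 at 219 and 215. With quantile normalization the accessibility counts at starts were 2394 and 1530. Away from starts it was P300 and POU5F1 that leaned to D2, with 2144 higher and 721 lower and 2160 higher and 765 lower. There TRIM28 was even, at 2281 higher and 2140 lower, and accessibility stood at 3937 and 4365. Regions with P300 and POU5F1 but no TRIM28 region had accessibility higher at 932 and lower at 1811 of 5196. In those regions P300 was higher at 237 and lower at 340, and POU5F1 at 344 and 230. On chromosome X, where 171 of the regions lay, the median differences were 0.20 for accessibility and 0.40 for P300 on the log2 scale. The sex of the lines is not given, and counts on autosomes alone were within 1.5 times those given.

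Away from gene starts P300, POU5F1 and accessibility differed together between the strains, and TRIM28 followed them less closely. At starts these correlations were lower, and accessibility was related to TRIM28 about as closely as to POU5F1. Where P300 and POU5F1 were both called, at 1930 regions, they had the same sign at 99.9%, with 2 exceptions. Accessibility and P300 had the same sign at 98.8% of 2616 regions where both were called, and accessibility and POU5F1 at 97.4% of 2743. With TRIM28 the share was 80.1% of 3989 for accessibility, 76.0% of 1482 for P300 and 75.2% of 1571 for POU5F1. Across the 24362 regions, Pearson's r of the log2 differences was 0.76 between P300 and POU5F1, 0.70 between accessibility and P300, 0.67 between accessibility and POU5F1, and 0.36 between accessibility and TRIM28. With TRIM28, P300 had an r of 0.24, and POU5F1 likewise. These r describe separate libraries made from the same lines, and neighbouring regions can share a factor region. With accessibility and TRIM28 taken from B44 and DAC203 only, which have no P300 or POU5F1 library, r was 0.58 between accessibility and P300 and 0.60 between accessibility and POU5F1. Away from starts r was 0.75 between accessibility and P300, 0.77 between accessibility and POU5F1, 0.82 between P300 and POU5F1 and 0.37 between accessibility and TRIM28. At starts these were 0.52, 0.34, 0.40 and 0.32. Spearman's rank correlation at starts was 0.20 for accessibility with POU5F1 and 0.36 for accessibility with TRIM28. The same sign at starts was held by 86.0% of 307 regions called in both accessibility and POU5F1 and 85.0% of 898 called in both accessibility and TRIM28, and 43 of the 71 opposite accessibility and POU5F1 calls lay there.

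**Figure D2:**
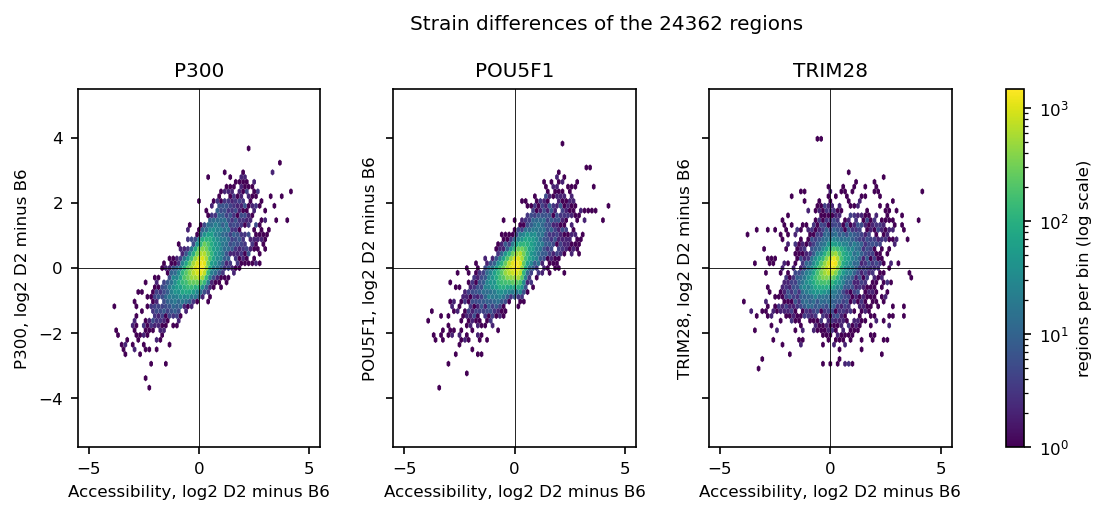
Log2 difference (D2 minus B6) of P300, POU5F1 and TRIM28 on the y axes against that of accessibility on the x axes, as the number of regions per bin (log colour scale), for the 24362 regions. P300 and POU5F1 follow the diagonal (r = 0.70 and 0.67), and TRIM28 spreads into all 4 quadrants (r = 0.36).

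Most regions were called in at most 1 of the 4 signals: 9096 in none, 9022 in 1, 3708 in 2, 1531 in 3 and 1005 in all 4. The most frequent patterns beside no call were accessibility alone, higher at 3321 and lower at 3271 regions, TRIM28 alone, higher at 1131, and accessibility with TRIM28, both higher at 1010 and both lower at 836. All 4 signals were higher in D2 at 526 regions and lower at 240. Median log2 differences of the 526 were 0.93 for accessibility, 0.68 for TRIM28, 1.13 for P300 and 0.98 for POU5F1, and of the 240 they were -1.29, -0.87, -1.07 and -0.98. These medians describe regions chosen by their calls. The 526 lay mostly away from gene starts (39 at a start), as did the 240 (22 at a start), and they drew on 492 and 232 separate combinations of factor regions. Leaving out D55 gave 293 higher and leaving out D29 322. Without B41 there were 308 higher and 86 lower, and without B51 308 and 70.

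Among the 8 regions with the widest joint rise in D2 (the largest mean of the 4 log2 differences), 3 lay on chromosome 13. Values below are normalized signals per region, in the order D55, D29 and DAC203 for D2 and B41, B51 and B44 for B6, or D55 and D29 and B41 and B51 where only those lines were measured, and differences are on the log2 scale. The region in an exon of 2410141K09Rik (chr13:66429235-66430636) had accessibility of 19.6, 19.7 and 16.9 in the D2 lines, against 1.32, 2.02 and 1.92 in the B6 lines, a log2 difference of 3.36 (SE 0.14, limma adjusted p = 2.3e-12). Its TRIM28 was 38.6, 53.3 and 40.6 in the D2 lines, against 17.9, 21.98 and 18.7 in the B6 lines, a difference of 1.16 (SE 0.12, limma adjusted p = 2.3e-10). P300 there was 58.8 and 87.8 in the D2 lines, against 11.3 and 6.17 in the B6 lines, and POU5F1 68.95 and 57.04 in the D2 lines, against 6.87 and 6.66 in the B6 lines. The named regions of the joint rises and falls were chosen among those whose D2 and B6 lines did not overlap, so the lack of overlap is no finding. The Gm10324 region (chr13:65990568-65991884, outside coding genes) had the widest P300 and POU5F1 rises of the 8, with P300 of 77.5 and 70.8 in the D2 lines, against 4.95 and 4.55 in the B6 lines, a difference of 3.71 (SE 0.23, limma adjusted p = 7.3e-24). POU5F1 at this region was 78.3 and 82.4 in the D2 lines, against 3.62 and 6.66 in the B6 lines. The Gm10139 region (chr13:65661170-65662156) lies on the same chromosome, with differences of 2.38 in accessibility and 2.79 in TRIM28. Of these 3 regions, in the order given, 57.8%, 80.9% and 93.2% of 31-base words occur in another accessible region, so some reads could fit more than 1 place and each value is uncertain.

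Elsewhere less of the sequence was shared. The Rnf150 region (chr8:82982238-82983934), in an intron of a RING finger gene, had accessibility of 19.96, 22.4 and 19.5 in the D2 lines, against 1.47, 1.12 and 0.625 in the B6 lines, a difference of 4.21 (SE 0.22, limma adjusted p = 2.3e-08). TRIM28 was 14.96, 19.4 and 13.7 in the D2 lines, against 3.06, 2.71 and 2.94 in the B6 lines, a difference of 2.41 (SE 0.17, limma adjusted p = 1.7e-15). P300 at Rnf150 was 34.5 and 44.5 in the D2 lines, against 8.52 and 5.52 in the B6 lines, and POU5F1 35.5 and 34.9 in the D2 lines, against 7.23 and 10.2 in the B6 lines. At Rnf150 0% of the region's 31-base words occur in another accessible region. The Sema3a region (chr5:13188595-13189812), in an intron of the gene of a secreted axon guidance protein, also had 0% and rose by 2.85 in accessibility, 2.11 in TRIM28, 2.07 in P300 and 2.62 in POU5F1. The Mpp6 intron region (chr6:50168424-50169804), in a membrane scaffold gene, rose by 2.96, 1.78, 1.81 and 1.81, though POU5F1 reached adjusted p of 0.087 without D29 and 0.38 without D55. The Gm3839 region (chr14:11438491-11439227) rose by 4.08, 1.44, 1.48 and 1.48. The Impad1 region (chr4:4549146-4552061), 241 kb from the start of a Golgi phosphatase gene, is 74.8% soft-masked, which in the reference marks interspersed repeats and low-complexity sequence. Its P300 was 103 and 145 in the D2 lines, against 16.8 and 15.9 in the B6 lines, and POU5F1 101 and 97.7 in the D2 lines, against 12.7 and 16.9 in the B6 lines, while TRIM28 was 38.4, 47.8 and 37.01 in the D2 lines, against 21.7, 20.98 and 24.6 in the B6 lines. The P300 rise of 2.83 there stood beside a TRIM28 rise of 0.86.

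The 8 widest joint falls were spread over 7 chromosomes. The Abca4 region (chr3:122144626-122146388), in an intron of a retinal lipid transporter gene, had accessibility of 0.666, 0.926 and 1.88 in the D2 lines, against 12.8, 11.3 and 13.6 in the B6 lines, a difference of -3.45 (SE 0.29, limma adjusted p = 1.1e-05). TRIM28 was 5.18, 5.52 and 3.90 in the D2 lines, against 15.6, 19.98 and 18.3 in the B6 lines, a difference of -1.87 (SE 0.15, limma adjusted p = 2.1e-13). POU5F1 showed the widest fall of the 8, with 9.08 and 6.87 in the D2 lines, against 117.2 and 111 in the B6 lines, a difference of -3.69 (SE 0.18, limma adjusted p = 5.8e-91). P300 fell by 2.54. Myo1f encodes an unconventional myosin of blood cells, and the region over its start (chr17:33597225-33602682) had P300 of 2.97 and 4.66 in the D2 lines, against 50.04 and 64.95 in the B6 lines, a difference of -3.61 (SE 0.26, limma adjusted p = 2.5e-20). Accessibility of the Myo1f region was 9.85, 9.89 and 12.2 in the D2 lines, against 45.6, 50.6 and 50.5 in the B6 lines, and TRIM28 10.7, 9.88 and 10.6 in the D2 lines, against 24.3, 24.8 and 25.7 in the B6 lines. The Ttc28 intron region (chr5:111126703-111128928) had the widest TRIM28 fall after that at the H2-Bl pseudogene, with 5.55, 4.49 and 3.67 in the D2 lines, against 32.6, 36.1 and 29.96 in the B6 lines, a difference of -2.84 (SE 0.14, limma adjusted p = 8.0e-20). Its P300 call was lost without either B6 line, with adjusted p of 0.20 and 0.45. Another region, at the Ttc28 start (chr5:110876942-110880717), was higher in D2 in all 4 signals, by 1.00, 0.65, 0.90 and 0.83. Ttc28 RNA was also higher in D2, with means of 22.7 against 6.55 and a difference of 1.66. At Dst, which encodes a linker of the cytoskeleton, the intron region (chr1:34106583-34108042) with nearly the same octamer stretch as the Ttc28 intron region had accessibility of 1.15, 1.46 and 1.62 in the D2 lines, against 18.4, 15.8 and 17.9 in the B6 lines, a difference of -3.54 (SE 0.13, limma adjusted p = 2.0e-13), and its P300 region spans 2 accessible regions. The region in an exon of the class I antigen pseudogene H2-Bl (chr17:36082691-36084802) fell by 3.33 in accessibility and 3.09 in TRIM28, and the region near Nanos1, an RNA-binding regulator of germ cells (chr19:60737332-60738369), by 2.15 and 2.43. The region 518 kb from the start of Pom121l12 (chr11:14080183-14081655) fell by 2.39 in accessibility and 1.16 in TRIM28. The region 217 kb from the start of Prdm2, a histone methyltransferase gene (chr4:142976623-142977804), fell by 3.6 and 1.36. Its P300 call was lost without B41, where the difference was -1.78 in place of -2.08.

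**Figure D3:**
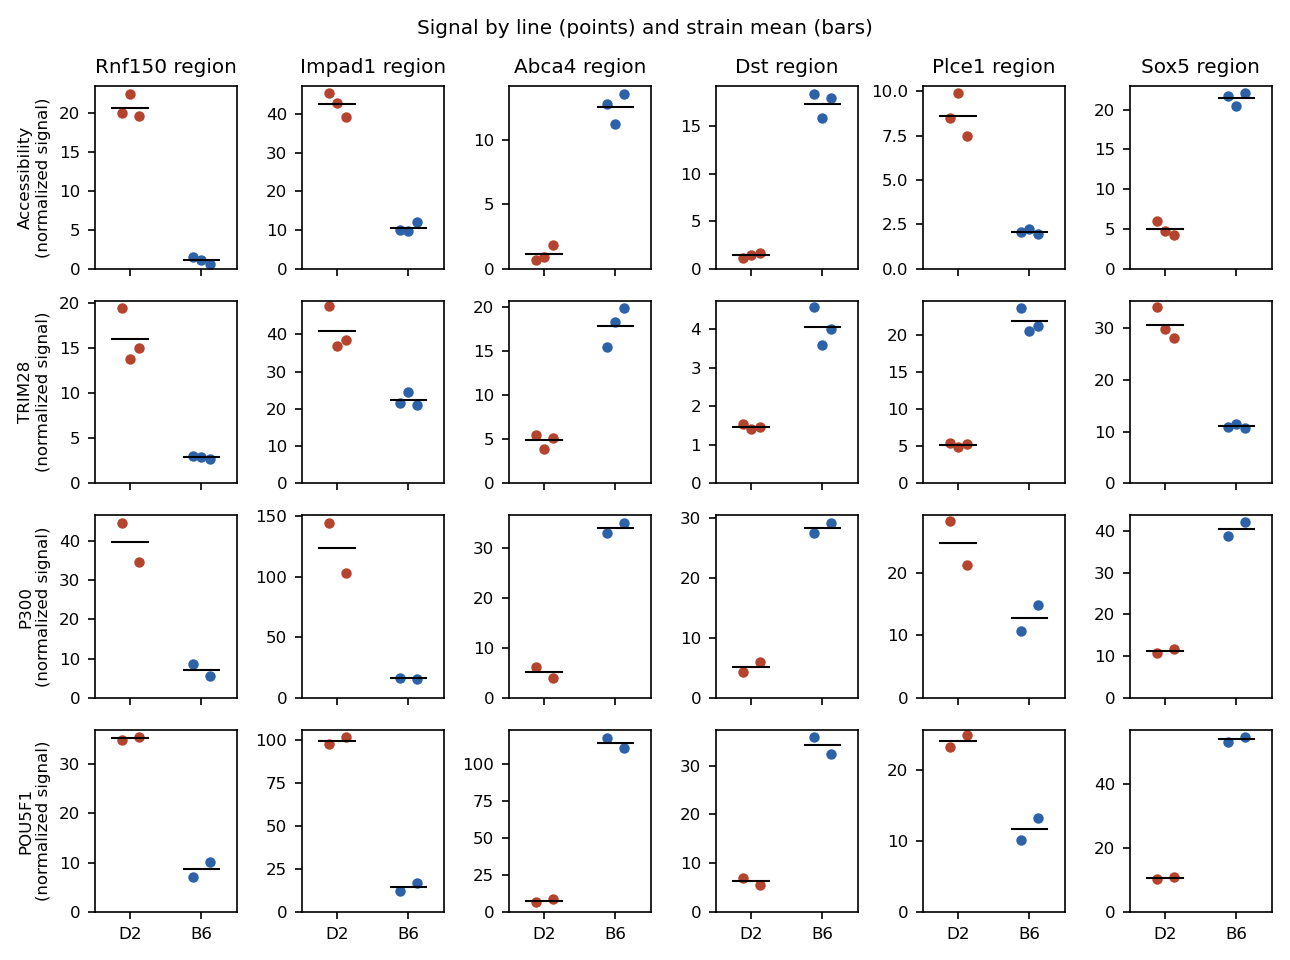
Normalized signal per line (points, D2 left and B6 right) with strain means (bars) for accessibility, TRIM28, P300 and POU5F1 (rows) at 6 regions (columns). All 4 signals stand higher in D2 at Rnf150 and Impad1 and lower in D2 at Abca4 and Dst, whereas TRIM28 runs against the other 3 at Plce1 and Sox5.

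TRIM28 took either side where the other 3 signals moved together. Accessibility, P300 and POU5F1 were all higher in D2 at 1298 regions, and of these TRIM28 was also higher at 526 (40.5%), not called at 589 (45.4%) and lower at 183 (14.1%). They were all lower at 432 regions, with TRIM28 lower at 240 (55.6%), not called at 141 (32.6%) and higher at 51 (11.8%). Counting accessibility and TRIM28 alone, TRIM28 was lower at 465 regions with higher accessibility and higher at 327 regions with lower accessibility. At each of the 8 widest of these, the D2 and B6 lines did not overlap in accessibility or in TRIM28.

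At Plce1, a phospholipase C gene, the intron region (chr19:38487470-38488982) had TRIM28 of 5.32, 5.39 and 4.97 in the D2 lines, against 23.8, 21.3 and 20.6 in the B6 lines, a difference of -2.04 (SE 0.14, limma adjusted p = 5.4e-16). Accessibility was 8.47, 9.89 and 7.48 in the D2 lines, against 2.08, 2.23 and 1.97 in the B6 lines, a difference of 1.98 (SE 0.13, limma adjusted p = 3.9e-10). P300 was 21.3 and 28.4 in the D2 lines, against 10.7 and 14.9 in the B6 lines, and POU5F1 24.97 and 23.2 in the D2 lines, against 10.1 and 13.3 in the B6 lines. TRIM28 was thus low in D2 where the other 3 were high, and the P300 call was lost without B41 (adjusted p = 0.30) or without D29 (0.097) and the POU5F1 call without D55 (0.091). The Crtac1 intron region (chr19:42343951-42344659), in an extracellular matrix protein gene, had the widest TRIM28 fall among them, with 8.94, 6.16 and 7.80 in the D2 lines, against 45.01, 49.5 and 52.9 in the B6 lines, a difference of -2.68 (SE 0.13, limma adjusted p = 1.9e-20). Its accessibility was 3.90, 4.48 and 3.45 in the D2 lines, against 0.659, 0.733 and 0.849 in the B6 lines, its P300 did not pass (adjusted p = 0.54), and its POU5F1 rise of 1.18 was lost without D29 (adjusted p = 0.10) or D55 (0.18). The Trak1 intron region (chr9:121328386-121330119), in a gene of mitochondrial transport, differed by -2.22 in TRIM28 and 2.56 in accessibility, while P300 and POU5F1 did not pass (adjusted p = 0.61 and 0.18). At Camta1, a calmodulin-binding transcription activator, the region (chr4:151147451-151148586) had TRIM28 of 21.4, 11.4 and 20.2 in the D2 lines, against 75.7, 77.8 and 81.8 in the B6 lines, and accessibility 8.16, 4.19 and 8.26 in the D2 lines, against 1.72, 0.942 and 0.893 in the B6 lines, so that D29 stood apart from the other D2 lines in both, while its P300 and POU5F1 did not pass (adjusted p = 0.23 and 0.16).

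In the opposite sense, the Sox5 intron region (chr6:144360741-144362203), in the gene of an HMG-box factor, had TRIM28 of 28.1, 34.1 and 29.8 in the D2 lines, against 10.8, 10.7 and 11.5 in the B6 lines, a difference of 1.46 (SE 0.12, limma adjusted p = 3.2e-13). Accessibility was 5.95, 4.68 and 4.20 in the D2 lines, against 21.8, 20.4 and 22.1 in the B6 lines, a difference of -2.11 (SE 0.11, limma adjusted p = 2.7e-11). POU5F1, whose octamer lies in this region, was 11.1 and 10.3 in the D2 lines, against 53.2 and 54.6 in the B6 lines, and P300 11.6 and 10.8 in the D2 lines, against 38.8 and 42.2 in the B6 lines. All 4 were far apart between the strains, with TRIM28 alone higher in D2. The region 31.8 kb from the start of Pmaip1, which encodes the cell death activator NOXA (chr18:66425682-66426715), had TRIM28 of 70.01, 86.3 and 77.3 in the D2 lines, against 14.9, 19.3 and 18.4 in the B6 lines, a difference of 2.15 (SE 0.12, limma adjusted p = 1.1e-18). Its accessibility was 1.86, 2.68 and 1.97 in the D2 lines, against 6.95, 6.66 and 8.31 in the B6 lines, a difference of -1.72 (SE 0.14, limma adjusted p = 1.4e-08). The region 177 kb from the start of Tnks, a poly-ADP-ribosylating enzyme (chr8:35142842-35143772), differed by 1.61 in TRIM28 and -1.93 in accessibility. The exon region of Ppp2r3d, a phosphatase subunit (chr9:124441468-124442979), differed by 1.36 and -1.74. The P300 calls at Pmaip1, Tnks and Ppp2r3d were lost without either B6 line, with adjusted p of 0.26 to 0.70, and the POU5F1 call at Pmaip1 without D29 (0.076). Wide TRIM28 regions are shared here: that of Trak1 spans 2 accessible regions, and those of Camta1 and Pmaip1 span 3.

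Repeated sequence stood at different shares in these sets. Of the 526 regions higher in all 4 signals, 59 (11.2%) had over 50% of their 31-base words in another accessible region, as did 5 (2.08%) of the 240 lower ones, 192 (0.788%) of all 24362 and 3518 (3.13%) of all accessible regions. Over 50% of the bases were soft-masked in 121 (23%) of the higher and 24 (10%) of the lower regions, against 1629 (6.69%) of all with 3 factors, 10.2% of those away from gene starts, where most of both sets lay, and 11.8% of all accessible regions. Where the 3 other signals were called together and TRIM28 ran against them, 76 (32.5%) of 234 regions were over 50% soft-masked, but 2 (0.855%) had over 50% of their words elsewhere. With each region left out that had over 5% of its words in another accessible region, 221 regions were higher and 160 lower in all 4 signals, and 257 and 229 had TRIM28 opposite to higher and to lower accessibility. The share of regions called one way in all 4 signals was highest among autosomes on chromosomes 13 (6.29%) and 17 (5.87%), with 57 higher and 12 lower of 1097 regions and 57 and 19 of 1294. Between 64 and 68 Mb of chromosome 13, 42 of 93 regions were higher and 5 lower in all 4 signals, and 53 of the 93 had over 50% of their words elsewhere. Of 161 pairs of regions called in all 4 signals that shared 100 or more words, 72 lay with both members on chromosome 13. The part of ambiguous read placement in these counts was not tested.

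**Figure D4:**
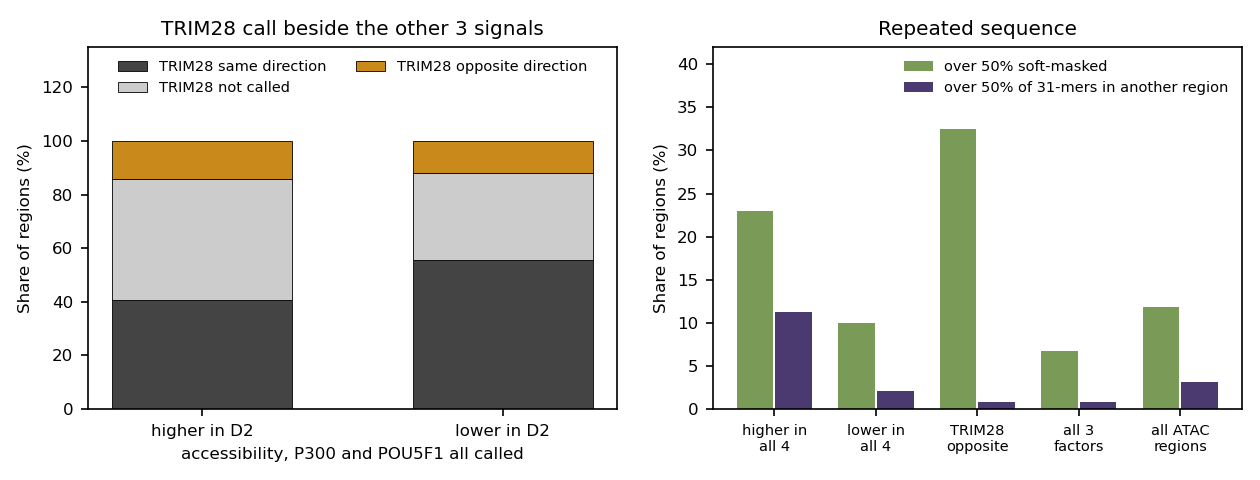
Left, TRIM28 call (percent of regions) where accessibility, P300 and POU5F1 were all higher or all lower in D2: the same direction held at 40.5% and 55.6% and the opposite at 14.1% and 11.8%. Right, percent of regions over 50% soft-masked and percent with over 50% of 31-base words in another accessible region, highest for the first measure where TRIM28 ran opposite (32.5%) and for the second where all 4 were higher (11.2%).

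Calls near pluripotency and early lineage genes are given by list, and are to be read against the shares over all regions with 3 factors: 28.4% higher and 22.8% lower in accessibility, 14.2% and 10.1% in TRIM28, 9.72% and 3.84% in P300 and 9.77% and 4.02% in POU5F1. All 4 signals were higher at 3 regions of core pluripotency genes, 2 of primitive endoderm, 1 of naive and 1 of two-cell-like genes, and lower at 2 of FGF and ERK and 1 of primitive endoderm genes. A region was assigned to a listed gene if that gene's start was the nearest within 20 kb or within 1 kb. Core pluripotency genes had 49 such regions, of which P300 was higher at 7 and lower at 0, POU5F1 at 8 and 2, TRIM28 at 10 and 2 and accessibility at 16 and 11. Of 76 regions of naive pluripotency genes, P300 was higher at 5 and lower at 0, POU5F1 at 7 and 1, and accessibility at 17 and 23, and of 59 of the formative and primed epiblast P300 was higher at 9 and lower at 1. The median log2 P300 differences of the 3 lists were 0.30, 0.17 and 0.19, beside 0.04 for all regions with 3 factors. Over all these regions the median was -0.03 at gene starts and 0.11 away from them, and the lists were not split by position. The 45 regions of KRAB silencing and H3K9 methylation genes had TRIM28 higher at 9 and lower at 3, with accessibility at 18 and 7 and POU5F1 at 0 and 5, and the 33 of P300 and coactivator genes had TRIM28 at 3 and 1. The 42 regions of Nodal and BMP genes had accessibility higher at 3 and lower at 15, and the 29 of LIF receptor and STAT3 genes at 3 and 10. FGF and ERK genes had 48 regions with 12 higher and 9 lower, trophectoderm genes 22 with 4 and 7, primitive endoderm genes 14 with 7 and 4, and two-cell-like genes 4, all higher in accessibility and in P300, beside two-cell-like marker RNA of 2.84 to 18.1 in D2 lines and 1.86 to 4.32 in B6 lines, whose part was not tested.

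Dppa2, a chromatin factor of pluripotent cells, had 2 regions that were higher in all 4 signals. The region over its start (chr16:48302762-48305082), which holds 2 octamers, had P300 of 51.8 and 61.9 in the D2 lines, against 26.4 and 28.9 in the B6 lines, a difference of 1.01 (SE 0.18, limma adjusted p = 2.9e-05). POU5F1 was 33.8 and 31.7 in the D2 lines, against 18.4 and 15.5 in the B6 lines, and TRIM28 12.4, 11.6 and 13.6 in the D2 lines, against 8.33, 11.3 and 7.55 in the B6 lines. The strains did not overlap in any of these, and the TRIM28 difference of 0.48 reached adjusted p of 0.075 without B44 and 0.053 without DAC203. At the second region (chr16:48307694-48312018) the P300 call was lost without B41 (0.29), B51 (0.080) or D29 (0.059), the POU5F1 call without B41 (0.059) and the TRIM28 call without B44 (0.053). Pramel6, of the PRAME family, had the widest P300 rise among the named regions of listed genes in the region at chr2:87514575-87518965, with 114 and 179.8 in the D2 lines, against 36.8 and 40.6 in the B6 lines, a difference of 1.86 (SE 0.17, limma adjusted p = 9.7e-13). Its POU5F1 was 121 and 92.4 in the D2 lines, against 45.2 and 39.97 in the B6 lines, and TRIM28 62.7, 69.3 and 59 in the D2 lines, against 44.7, 51.4 and 46.6 in the B6 lines. The Zfp42 region (chr8:43320442-43321410), 13.5 kb from the start of the naive marker also called Rex1, rose by 1.17 in accessibility, 0.44 in TRIM28, 1.15 in P300 and 1.10 in POU5F1. The Zfp42 P300 call was lost without B51 (adjusted p = 0.24) and the POU5F1 call without D29 (0.17) or D55 (0.11). Both Hnf4a regions share 1 region of each factor, and at the wider (chr2:163515488-163517950), in an intron of a nuclear receptor of endoderm, accessibility was 17.5, 15.01 and 15.5 in the D2 lines, against 8.57, 9.74 and 7.15 in the B6 lines, with a TRIM28 difference of 0.40 whose call was lost with median-ratio scaling (adjusted p = 0.057), with quantile normalization (0.061) and without B41 (0.16), B51 (0.079), D55 (0.12) or DAC203 (0.13). The D2 and B6 lines overlapped in TRIM28 there, and the P300 call was lost without B51 (0.33) and the POU5F1 call without D55 (0.19). The Foxd3 region (chr4:99635030-99637650) was higher by 0.82 in P300 and by 0.32 in TRIM28, a TRIM28 call lost with edgeR (adjusted p = 0.051), with median-ratio scaling (0.058) and without B44 (0.059), B51 (0.12), D29 (0.061) or DAC203 (0.14). Its accessibility call was lost without B41 (0.052) or D29 (0.065), its P300 call without B41 (0.11) and its POU5F1 call without D55 (0.21).

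On the lower side, the Sox7 region (chr14:63936119-63937210), 6.46 kb from the start of a primitive endoderm transcription factor gene, had POU5F1 of 13.3 and 12.4 in the D2 lines, against 52.1 and 58.6 in the B6 lines, a difference of -2.02 (SE 0.19, limma adjusted p = 4.2e-24). Accessibility was 2.09, 2.10 and 2.45 in the D2 lines, against 14.2, 11.6 and 12.5 in the B6 lines, a difference of -2.47 (SE 0.12, limma adjusted p = 6.8e-12), and TRIM28 1.46, 0.770 and 1.54 in the D2 lines, against 1.81, 3.57 and 3.59 in the B6 lines. All 4 signals fell, and the TRIM28 call was lost with quantile normalization (adjusted p = 0.059). Both regions in an intron of Fgfr2, an FGF receptor gene, share their factor regions. Their P300 was 22.7 and 32.01 in the D2 lines, against 43.7 and 44.5 in the B6 lines, a difference of -0.69 (SE 0.19, limma adjusted p = 0.0092). This call was lost without B41, B51 or D55, where the differences were -0.70, -0.68 and -0.45. The TRIM28 call was lost without B51 (limma adjusted p = 0.074) or D29 (0.056). Accessibility of the narrower one (chr7:130252013-130252543) was 1.51, 1.46 and 1.53 in the D2 lines, against 4.92, 5.13 and 4.42 in the B6 lines, a difference of -1.62 (SE 0.14, limma adjusted p = 2.2e-08). The Pim3 region (chr15:88853747-88855393), near a kinase gene downstream of STAT3, fell by 1.54 in accessibility, 0.75 in TRIM28 and 0.93 in P300, while POU5F1 differed by -0.18 and did not pass (adjusted p = 0.54). Lama1, a laminin chain of basement membrane, had a region (chr17:67709510-67712256) with TRIM28 of 5.08, 5.01 and 4.14 in the D2 lines, against 9.17, 9.13 and 7.94 in the B6 lines, a difference of -0.87 (SE 0.17, limma adjusted p = 4.1e-05), while accessibility, P300 and POU5F1 rose by 0.47, 0.74 and 0.87. The Lama1 P300 call was lost without B41 (adjusted p = 0.14) or B51 (0.14) and the POU5F1 call without D55 (0.070).

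The BXD lines, which the strain fits did not use, fell into a high and a low group at some of the named regions and spread between the parents at others. At the Rnf150 region their accessibility ran from 0.453 to 26.4 with a median of 17.3, and 19 of 33 lines fell nearer to D2 than to B6 on the log2 scale. Only 1 line lay in the middle interval, here meaning between the points that cut the distance of the parental means into 3 equal parts. The Dst region ran from 0.668 to 24.01 with a median of 14.7, with 16 lines on the D2 side and 0 in the middle interval. At the Ttc28 region the lines ran from 0.824 to 36.5 with a median of 16.6, 10 were on the D2 side and 0 in the middle interval, and the median line lay above each B6 line (12.1 to 12.7). The Gm3839 region had 6 lines on the D2 side and none in the middle interval, and its D2-side lines stood below the D2 parents. At other regions the middle interval held more lines, with 14 at Tnks, 9 each at Crtac1, Plce1 and Ppp2r3d, and 8 at Impad1. Over the 526 regions higher and the 240 lower in all 4 signals, a median of 18 of 33 lines lay on the D2 side in both sets, and a median of 6 and 4 lines in the middle interval. Of the 526, 28 had 30 or more lines on the D2 side and 3 had 3 or fewer, and of the 240 these were 8 and 1. Among the regions of listed genes, the narrower Fgfr2 region, Pramel6 and Foxd3 had 32, 30 and 30 lines on the D2 side.

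**Figure D5:**
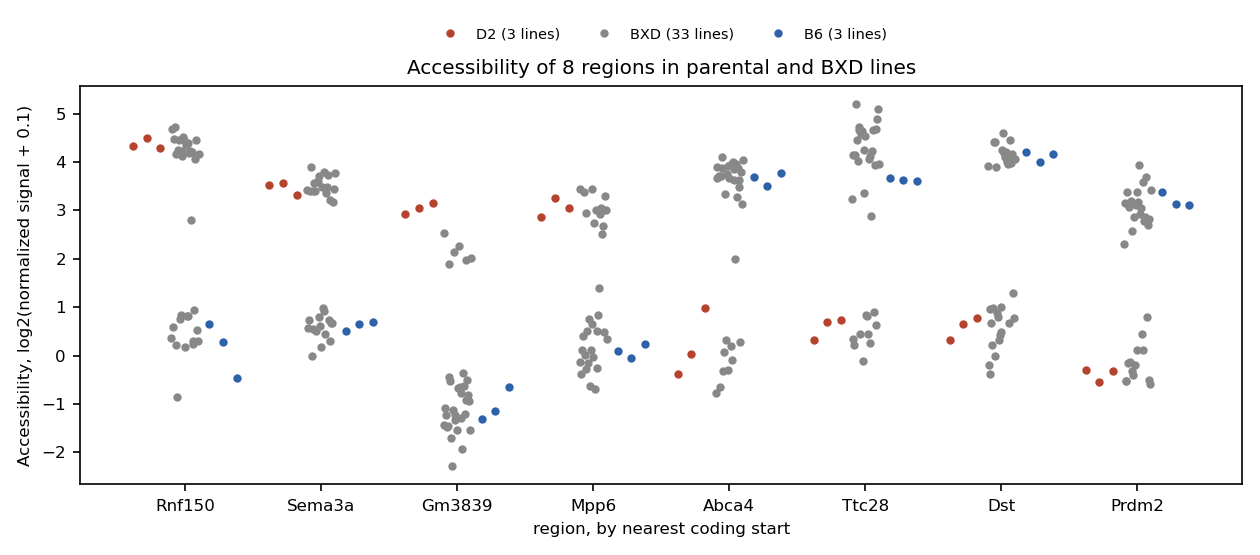
Accessibility as log2(normalized signal + 0.1) at 8 regions for D2 (left), BXD (middle) and B6 (right) lines, 1 point per line. The regions drawn are ones where the BXD lines form a high and a low group, with 0 or 1 of 33 lines in the middle interval.

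The F1 was tested against the midpoint of its parents on the log2 scale of the deposited table. It was above the midpoint at 4061 of the 24362 regions (16.7%) and below at 503 (2.06%). Over the whole of that table the shares were 4.86% above and 3.32% below, and over all ESC accessible regions 8.65% and 4.44%. In regions with P300 and POU5F1 but no TRIM28 region they were 16.3% and 2.50%, so the lean was not particular to regions with all 3 factors. Without one of the F1 lines the count above was 1649 (F116), 2560 (F117) or 2159 (F124), and that below was 215 without F116, 311 without F124 and 966 without DAC203. Quantile normalization gave 1677 above and 878 below. The median departure was 0.10 on the log2 scale and 0.09 against the midpoint of the linear values, above which the F1 lay at 76.6% of these regions and at 56.6% of all accessible regions. At gene starts the F1 was above at 1097 and below at 21 regions, and away from starts at 2964 and 482. In the regions higher in all 4 signals the F1 stood at a median of 69.6% of the way from B6 to D2 on the log2 scale, and in those lower in all 4 at 30%. The Ttc28 region stood above both parents, with log2 levels of 4.17 ± 0.05 in the F1, 0.60 ± 0.22 in D2 and 3.64 ± 0.03 in B6 (SD, n = 3 each).

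In EpiLCs, 20088 of the regions overlapped a region of the EpiLC accessibility table, and D2 was higher at 4358 and lower at 9751, against 25.6% and 32.6% of that table. With quantile normalization they were 5955 higher and 4729 lower, so the side with more calls turned with the scaling. Of 380 regions that were higher in all 4 ESC signals and had an EpiLC region, 284 were higher and 22 lower in D2 EpiLCs, and of 179 that were lower in all 4, 14 were higher and 139 lower. Accessibility of the Dst region in EpiLCs was 1.36 ± 0.347 in D2 and 10.6 ± 0.50 in B6 (SD, n = 3 each), a difference of -2.90 (SE 0.13, limma adjusted p = 1.3e-24). Myo1f went the other way from ESCs, with 6.28 ± 0.159 in D2 EpiLCs and 4.74 ± 0.0752 in B6 EpiLCs, a difference of 0.40 (SE 0.10, limma adjusted p = 0.00066). At gene starts the median differences were 0.11 in ESCs and -0.21 in EpiLCs over the 8505 regions with an EpiLC region, and -0.02 in EpiLCs with quantile normalization. Quantile normalization gave an ESC median of 0.06 over all regions with 3 factors at gene starts.

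RNA of genes whose start lay within 1 kb of such a region mostly had the sign of accessibility, P300 and POU5F1 where these were called together. Over the 8492 genes with a start there, 7170 were tested, and 1308 were higher and 1439 lower in D2, against 17.3% and 20.3% of all genes tested. With median-ratio scaling they were 1464 and 1265, and without B41 933 were lower. Of 83 tested genes at starts where accessibility, P300 and POU5F1 were all higher, 50 had higher and 8 lower RNA, and of 40 where they were all lower, 1 had higher and 26 lower RNA. Where all 4 signals were higher, 20 of 31 tested genes were higher and 4 lower, and where all 4 were lower, 1 of 17 was higher and 12 lower. Where TRIM28 ran opposite, the RNA calls mostly had the sign of accessibility: of 67 genes with higher accessibility and lower TRIM28, 37 were higher and 4 lower, and of 53 with the reverse, 4 were higher and 25 lower.

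Named after their values were seen, several of these genes show the range. Glo1, the enzyme that clears methylglyoxal, had RNA of 299.7, 318 and 317 in the D2 lines, against 153, 155 and 152 in the B6 lines, a difference of 1.02 (SE 0.07), and the region at its start was higher by 1.02 in accessibility, 0.71 in TRIM28, 1.05 in P300 and 1.07 in POU5F1. Between 30 and 32 Mb of chromosome 17, where Glo1 lies, 14 of 67 regions were higher and 0 lower in all 4 signals. Dnah8 in that window likewise had higher RNA, by 1.26, with differences of 0.92, 0.89, 1.18 and 1.05 at its start. DNA copy number was not tested. Klf12, a repressor of the KLF family, had 8.48, 7.40 and 6.31 in the D2 lines, against 0.812, 1.15 and 0.694 in the B6 lines. Cdh1 encodes E-cadherin, the adhesion molecule of the naive epiblast, and had 237, 273 and 302 in the D2 lines, against 741, 570 and 637 in the B6 lines, a difference of -1.26 (SE 0.12). The region at the Cdh1 start was lower by small amounts, -0.33 in accessibility, -0.34 in TRIM28, -0.67 in P300 and -0.46 in POU5F1. Nod1, a sensor of bacterial peptidoglycan, had 1.74, 2.08 and 1.15 in the D2 lines, against 25.96, 23.5 and 28.8 in the B6 lines.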

How the data were processed

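The deposited tables of accessibility, TRIM28, P300, POU5F1 and RNA hold a normalized signal: reads per region or gene divided by a factor per library, as the authors made them and as far as the values show. Tools listed in the submitters' processing notes include MACS 1.4.2, Bowtie 1.0.0 and HISAT2 2.0.5, and the build is mm10, without saying which did what. Neither labels nor files say how regions were called, how replicates entered or whether starts count from 0 or 1. Reads of D2, F1 and BXD lines were placed on a C57BL/6J reference as far as the notes say, and the part of this in the strain differences was not tested. Per the labels' protocols, 100000 cells were used per ATAC-seq library and ChIP used 10000000. All ESC lines were grown in naive conditions.

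Strain differences were fitted on each whole table with limma 3.58.1 (trend and robust, R 4.3.3) on log2(value + 0.1) for accessibility and TRIM28 and log2(value + 1) for P300, POU5F1 and RNA, so differences of low regions are understated, with Benjamini-Hochberg adjustment at 0.05. The table with the F1 holds log2 values as the authors deposited it, scaled apart from the other tables, and was fitted as it stands. Genes under a mean RNA of 0.5 were left out. Accessible regions took the values of the factor region with the largest overlap. At the tolerance of 0.01, values of accessibility, EpiLC accessibility and TRIM28 came out as whole reads, and edgeR 4.0.16 on these reads called 7572 higher and 5700 lower regions in accessibility, 3368 and 2878 in TRIM28 and 5010 and 8091 in EpiLCs. The gene annotation was GENCODE vM21. Sequence came from GRCm38.p6, and words of 31 bases were counted over all accessible regions on either strand. The scripts used Python 3.11.15, numpy 2.4.6, pandas 2.3.3, pysam 0.24.0 and matplotlib 3.10.9, and the fits were tested on simulated data. All value columns used belong to a labelled sample.

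The regions and gene lists were chosen with earlier results of these data known. Named were the 8 higher and the 8 lower regions with the largest mean difference among those called in all 4 signals with no overlap between lines, the 4 of each direction with opposite accessibility and TRIM28 (by the smaller difference), and up to 12 regions of listed genes called in 2 or more signals. Same-numbered replicates did not deviate together (correlations -0.11, -0.06 and -0.24 for accessibility and 0.02, -0.01 and 0.04 for TRIM28), so no pairing was used. Intervals and p-values rest on 3 lines per strain, or 2 for P300 and POU5F1. Alternatives were other scalings, pseudocounts, filters, thresholds, overlaps and each line left out.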

Additional observations from a re-analysis of the deposited data

Results flagged for a closer look

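On the deposited scaling, accessibility at gene starts ran in opposite directions in the 2 cell states. Over the 8505 regions with all 3 factors at a gene start and with an EpiLC region, the median log2 difference between D2 and B6 was -0.21 in EpiLCs and 0.11 in ESCs. Each D2 line, set against the B6 mean, was below 0 in EpiLCs (-0.24 to -0.18) and above 0 in ESCs (0.10 to 0.13). The difference between the states was not tested. With quantile normalization the EpiLC median was -0.02, with 1445 regions higher and 2073 lower in place of 490 and 5938. Over all regions with 3 factors at gene starts, the ESC median then went from 0.11 to 0.06. The contrast between the states thus depends on the scaling, and the EpiLC side came close to 0.

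The Myo1f region at chr17:33597225-33602682 was higher in D2 EpiLCs, by 0.40 on the log2 scale, and lower in D2 ESCs, by -2.19. Each D2 line lay on the stated side of each B6 line in both states, which for ESCs was part of the choice of the region. The difference between the states was not tested.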

How the results depend on the processing

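Counts of calls depended on how the spread was estimated, on single lines, on the scaling and on repeated sequence. Leaving out 1 line at a time gave 5306 to 7661 regions higher and 4631 to 5582 lower in accessibility, 2756 to 3189 and 1963 to 2343 in TRIM28, 891 to 4597 and 156 to 2031 in P300, 820 to 2167 and 474 to 828 in POU5F1, and 3933 to 4297 and 8660 to 9730 in EpiLCs. All 4 signals were higher at 293 to 499 (322 without D29, 308 without B41 and 308 without B51) and lower at 70 to 222 regions, TRIM28 was opposite at 370 to 452 with higher and 243 to 297 with lower accessibility, the F1 was above at 1649 to 5012 and below at 215 to 966, and RNA was higher for 883 to 1376 and lower for 933 to 1622 genes. Pearson's r then ranged from 0.61 to 0.71 (accessibility and P300), 0.62 to 0.68 (accessibility and POU5F1), 0.65 to 0.76 (P300 and POU5F1), 0.35 to 0.36 (accessibility and TRIM28), 0.18 to 0.28 (TRIM28 and P300) and 0.20 to 0.25 (TRIM28 and POU5F1). Limma without trend and robust called 4546 regions higher in accessibility, 2257 higher in TRIM28, 514 higher and 198 lower in P300, 811 and 313 in POU5F1, 191 and 86 in all 4, 305 and 199 with opposite TRIM28, and 346 above and 79 below in the F1. Quantile normalization gave 1455 lower in P300, 4729 lower in EpiLCs, and 1677 above and 878 below in the F1. A filter on low regions gave 154 lower in all 4. A threshold of 0.01 gave 328 higher and 126 lower in all 4 and 185 with opposite TRIM28 at lower accessibility. Leaving out repeated sequence, an alternative added after seeing the data, gave 221 higher in all 4 and 257 with opposite TRIM28 at higher accessibility. With accessibility and TRIM28 from B44 and DAC203 only, r was 0.58 for accessibility with P300, 0.60 with POU5F1 and 0.30 with TRIM28; the last was 0.35 with quantile normalization (0.3516) or another pseudocount (0.3514) and 0.41 with each factor region used once. The cause of these shifts was not tested. With the replicate number as a block, 5761 and 5035 regions were higher and lower in accessibility, 3698 and 2591 in TRIM28, 2306 and 1008 in P300, 4259 and 9543 in EpiLCs, 550 and 254 in all 4, and 446 and 310 with opposite TRIM28, and 939 and 1004 genes in RNA; no paired analysis was possible for POU5F1 because both D2 lines carry the same replicate number. For the named regions, 1494 values kept their call, 101 lost it, 2 gained it and 0 changed sign.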
